A study of Mus musculus with 16 samples.

Results

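RNA polymerase II (Pol II) makes messenger RNA with the help of a set of general transcription factors and of the Mediator complex, and the genes for these proteins are described here in the mouse heart under pressure overload and under THZ1, a covalent inhibitor of the transcription kinases Cdk7, Cdk12 and Cdk13. Genes were chosen by a rule on names and counts, with earlier results of these data known. A gene was taken when its mouse symbol began with Polr2, with Gtf2, or with Med or Taf followed by a digit, and when its normalized count reached 10 in at least 4 of the 16 libraries. Of the 22372 genes in the deposited file, 82 carried such a symbol, and 78 of them reached the count, out of 13331 genes of all kinds that reached it. The question that the design puts to these genes is whether the messages of the transcription machinery change, with or without heart disease, when the kinases that act on that machinery are inhibited for weeks.

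RNA-seq was carried out on a piece of ventricle from each of 16 male C57BL/6J mice, aged 10 to 12 weeks at surgery, for which the labels name no engineered allele. Transverse aortic constriction (TAC), which narrows the aorta and loads the left ventricle with pressure, was compared with a sham operation, and in each arm mice were injected with vehicle or with THZ1. The 4 groups of 4 mice are sham with vehicle (Sham-Veh), sham with THZ1 (Sham-THZ1), TAC with vehicle (TAC-Veh) and TAC with THZ1 (TAC-THZ1), and the drug was injected into the abdomen at 10 mg per kg, 2 times a day, from day 1 to day 60. Each replicate is 1 mouse.

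Pol II is built of many subunits. Its largest, Polr2a, holds most of the catalytic site and ends in a long repetitive C-terminal domain (CTD) that kinases mark as transcription begins and elongates. At the promoter, TFIID, made of the TATA-binding protein and its associated factors (TAFs), recognises DNA and histone marks, TFIIA and TFIIB steady the assembly, TFIIF escorts the polymerase, and TFIIE brings in TFIIH, whose core opens the DNA and whose detachable kinase is Cdk7 with cyclin H and Mnat1. Mediator carries the signal from factors bound at enhancers: its head and middle touch the polymerase, its tail binds activators, Med14 is the scaffold that joins them, and a separate kinase module of Med12 or Med12l, Med13 or Med13l, cyclin C and Cdk8 or Cdk19 attaches and detaches. In heart muscle Med13 is also known as a target of the cardiac microRNA miR-208a and as a regulator of metabolism. The symbols bring in some neighbours as well. Taf1b, Taf1c and Taf1d belong to the Pol I factor SL1, Taf5l and Taf6l to histone acetyltransferase complexes, Taf15 is an RNA-binding protein, and Gtf2i, Gtf2ird1 and Gtf2ird2 encode the TFII-I family, which bind particular DNA sequences and act at selected genes.

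By role, the 78 genes comprised 6 subunits found in Pol II and 5 shared with Pol I and Pol III, 7 of TFIIA, TFIIB, TFIIE and TFIIF, 5 of the TFIIH core, 16 TFIID TAFs, 30 of Mediator (12 in the head, 8 in the middle, 6 in the tail or scaffold and 4 in the kinase module), 3 of the TFII-I family, 3 Pol I TAFs and 3 other genes with a Taf symbol. The 4 genes that did not reach the count were Polr2b, a second entry for Med20 (ENSMUSG00000023984), Gtf2a1l and Taf7l. Polr2b encodes the other large catalytic subunit of Pol II, yet its highest normalized count in any library was 2.97. Only 18.4% of its annotated exon bases lie outside another gene on the same strand, AC141469.5, which was itself at 0 in all 16 libraries. The bases outside AC141469.5, 859 of 4667, belong to Polr2b alone. The part of the overlap in the low counts of Polr2b was not tested, so its level is given no reading here. The second Med20 entry has 20.7% of its exon bases to itself and was at 0 throughout. Gtf2a1l and Taf7l, germ-cell relatives of Gtf2a1 and Taf7 with no such overlap, reached at most 2.18 and 0 normalized counts. Taf9 is listed under ENSMUSG00000052293 and ENSMUSG00000078941, which overlap each other and have 85.3% and 80.2% of their exon bases to themselves, and their values are therefore uncertain. Med12 shares part of its exons with Nlgn3 and has 90.3% of them alone.

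Libraries held between 21431703 and 35812869 reads in genes, of which 33.2% to 44.7% were mitochondrial. Marker genes of heart muscle, 5 of 5 tested, gave summed normalized counts of 974949 to 1052820 in Sham-Veh, 1003190 to 1043490 in Sham-THZ1, 520495 to 739714 in TAC-Veh and 785080 to 972570 in TAC-THZ1. Summed over 5 fibroblast markers the values were 20417 to 22932, 20439 to 22202, 56330 to 120344 and 23984 to 35745 in the same order, and 4 of the 5 were called higher with TAC, Pdgfra being at 0.25 (adjusted p = 0.0614). Of the heart muscle markers 3 of 5 were called lower with TAC in the limma fit described below, with Myh6 lowest (log2 fold change -1.20). Tnnt2 was at -0.28 (adjusted p = 0.0974) and Actc1 at -0.02 (adjusted p = 0.939), so the sum does not stand for each marker. Sums over 4 endothelial markers were 16428 to 18382, 18198 to 19625, 13628 to 18437 and 12782 to 13945. Macrophage sums (3 markers) were 1919 to 2168, 1772 to 2098, 2187 to 3048 and 1745 to 3166, smooth muscle and pericyte sums (4 markers) 20491 to 23032, 22004 to 22959, 15397 to 22158 and 16325 to 16839, and erythroid sums (2 markers) 4913 to 5400.4, 4315 to 7750.4, 6019 to 10808 and 5567 to 23863. Of the atrial markers only Myl4 reached the count filter, at 81.1 or less. In pieces of whole tissue, fewer cells of a type and less RNA per cell cannot be told apart, and the part of these shifts in the differences below was not tested.

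Summed over the group, the messages took a small and similar share of each library. The summed normalized counts ranged from 39878 to 40977 in Sham-Veh, 40679 to 41531 in Sham-THZ1, 36923 to 40242 in TAC-Veh and 40159 to 41537 in TAC-THZ1, so that TAC-Veh reached lowest and its range overlapped those of Sham-Veh and TAC-THZ1. Together they took 0.227% to 0.240% of the non-mitochondrial reads of a library. Levels per kilobase of exon in Sham-Veh spanned from 17.2 normalized counts per kb for Med12l to 1125 for Polr2f, with a median of 121. Polr2a stood at 217 per kb, Polr2g, which forms the stalk of Pol II, at 689, and Gtf2i at 675. The spread between mice was widest in TAC-Veh, where the median coefficient of variation was 11.5% against 6.40% in Sham-Veh, 5.38% in Sham-THZ1 and 7.20% in TAC-THZ1, and in TAC-Veh 10 genes varied by more than 20%, led by Polr2a at 36.5%.

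Pressure overload moved members in both directions by modest amounts. The largest subunit of Pol II, the TFIID scaffold Taf4a, Gtf2i and the kinase-module gene Med12l were lower in TAC-Veh than in Sham-Veh, while small Mediator subunits, TFIIB, both TFIIF subunits and parts of TFIIH were higher. With limma on log2(normalized count + 1), fitted to all 16 libraries and adjusted over all 13331 genes, 15 of the 78 were higher (19.2%, against 21.4% of all genes) and 12 were lower (15.4%, against 23.6% of all genes) at an adjusted p below 0.05. All fold changes given here are on this log2 scale. The median log2 fold change of the members was 0.00, as it was over all genes, and their median absolute change was 0.14 against 0.26 over all genes. Scaling the libraries to their totals without mitochondrial genes turned the split of 15 higher and 12 lower into 19 higher and 8 lower. The shift was common to all genes: the median went to 0.07 for the members and to 0.06 over all genes, of which 26.2% were then higher and 17.7% lower.

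**Figure D1:**
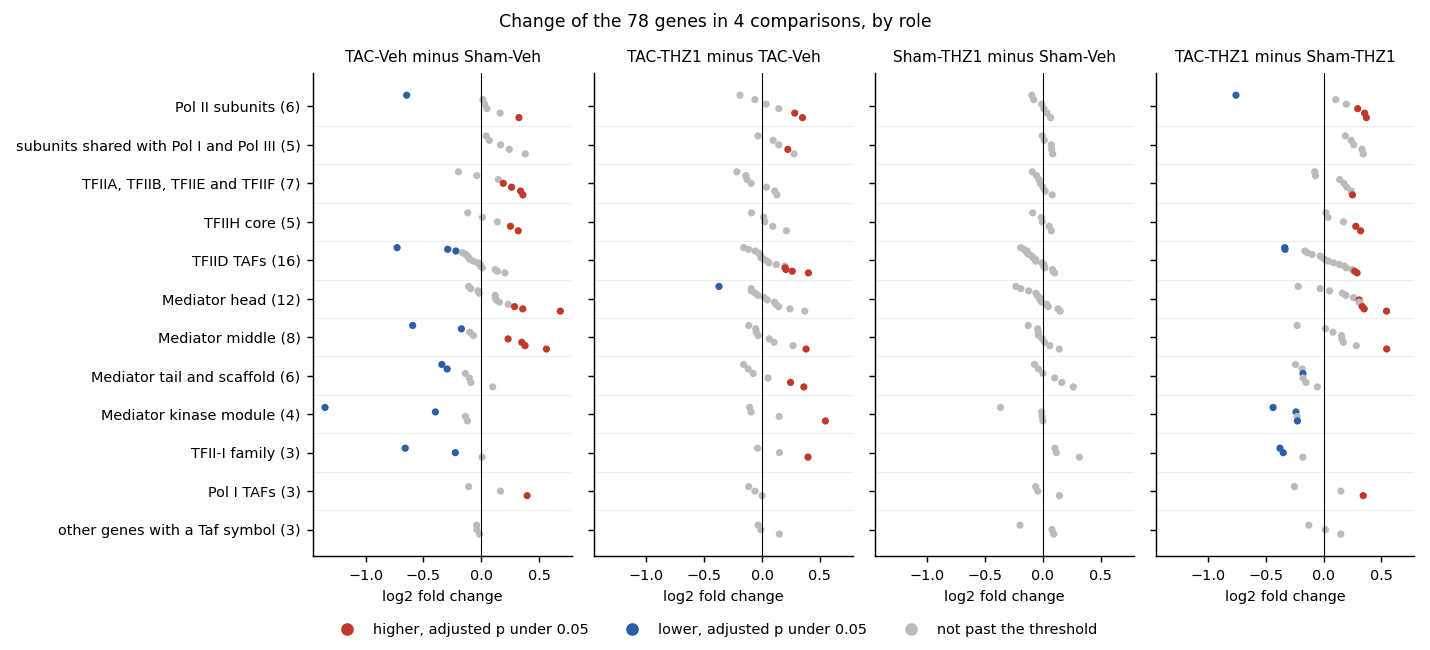
Log2 fold change of each of the 78 genes (horizontal axis) in 4 comparisons (1 panel each), grouped along the vertical axis by role with the number of genes in parentheses; red points were higher and blue points lower at an adjusted p below 0.05, and grey points did not pass. With TAC, the roles TFIID, Mediator kinase module, Mediator tail and TFII-I family hold blue and no red points, and the Mediator head, the TFIIA to TFIIF group and TFIIH hold red and no blue points, while the panel for THZ1 in sham hearts holds grey points only. Over all genes 21.4% were higher and 23.6% lower with TAC, and each role holds few genes.

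Polr2a, the catalytic and CTD-bearing subunit (ENSMUSG00000005198, NCBIM37 chromosome 11, 69547499 to 69572139, minus strand), read 1456, 1686, 1286 and 1718 normalized counts in the 4 Sham-Veh mice and 827, 969.6, 726 and 1557 in TAC-Veh. TAC-Veh replicates 1, 2 and 3 lay below every Sham-Veh mouse, and replicate 4 lay among them. Means were 1536 ± 204 and 1019.8 ± 372 (SD, n = 4 each), and the decrease passed the test (log2 fold change -0.64, SE 0.16, adjusted p = 0.00448). Leaving out the high TAC-Veh mouse moved the value to -0.87. Among the other Pol II subunits, Polr2g rose from 608, 613, 631 and 540.0 to 918, 705, 753 and 643 (log2 fold change 0.33, SE 0.09, adjusted p = 0.00737). Every TAC-Veh mouse was above the highest Sham-Veh mouse for Polr2g. The remaining 9 Pol II and shared subunits did not pass, and the farthest of them from 0 was Polr2h, a shared subunit, at 0.38 (adjusted p = 0.0529). Of the 11, then, 1 was higher and 1 lower (9.09% each, against 21.4% and 23.6% of all genes).

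Med12l, a paralog of Med12 in the Mediator kinase module (ENSMUSG00000056476, chromosome 3, 58810900 to 59122332, plus strand), had the largest change of the 78. Its counts were 179, 193, 169.8 and 175 in Sham-Veh and 55.3, 59.3, 86.2 and 82.6 in TAC-Veh, so all 4 TAC-Veh mice were far below the sham mice, and the mean fell by 60.4% (log2 fold change -1.35, SE 0.13, adjusted p = 1.16e-06). Med13 fell as well, from 1239, 1424, 1320.0 and 1325 to 1018, 968, 936 and 1112 (log2 fold change -0.40, SE 0.07, adjusted p = 2.74e-04), with no overlap between the groups. The better-known members Med12 and Med13l gave -0.14 (adjusted p = 0.154) and -0.12 (adjusted p = 0.284). In the kinase module, then, 2 of 4 genes were lower (50%, against 23.6% of all genes) and none higher (against 21.4%).

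In the Mediator middle, whose genes split in direction, 4 of 8 were higher and 2 lower (50% and 25%, against 21.4% and 23.6% of all genes). Med26, which can dock elongation factors on Mediator, fell from 200.5, 229, 205 and 223 to 145, 132, 139 and 152 (log2 fold change -0.59, SE 0.11, adjusted p = 3.29e-04), and Med1, a contact for nuclear receptors, had -0.17 (adjusted p = 0.035). Med10 rose from 296, 270.3, 274 and 288 to 533, 424, 392.3 and 342 (log2 fold change 0.56, SE 0.12, adjusted p = 0.0011). For Med10 the TAC-Veh mice all exceeded the sham mice but differed widely among themselves. Med21, Med7 and Med9 also rose, by 0.38, 0.35 and 0.23.

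The Mediator head had 3 of 12 genes higher (25%, against 21.4% of all genes) and none lower (against 23.6%). Med11, a small head subunit, read 111, 108, 89.3 and 102 in Sham-Veh and 159.9, 195, 168 and 141 in TAC-Veh, with every TAC-Veh mouse above the sham mice (log2 fold change 0.68, SE 0.12, adjusted p = 3.39e-04). Med8 and Med27 rose by 0.36 and 0.29. Of the 6 tail and scaffold genes 2 were lower (33.3%, against 23.6% of all genes). Med25, a docking site for activators, fell from 946, 1064, 1075 and 1205 to 819, 687, 905 and 994 (log2 fold change -0.34, SE 0.10, adjusted p = 0.00825), with 1 TAC-Veh mouse inside the sham range, and Med16 fell by 0.30. The scaffold Med14 gave -0.09 (adjusted p = 0.238).

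Of the 16 TFIID TAFs none was higher (against 21.4% of all genes) and 3 were lower (18.8%, against 23.6% of all genes). Taf4a, which holds TFIID together and binds activators (ENSMUSG00000039117, chromosome 2, 179646851 to 179711351, minus strand), fell from 495, 551, 568 and 591 to 267, 291, 369 and 423, all 4 TAC-Veh mice being below the sham mice (log2 fold change -0.73, SE 0.11, adjusted p = 1.07e-04). Taf3, which reads a histone mark of active promoters, and Taf10, a histone-fold subunit shared with the SAGA coactivator, fell by 0.29 and 0.22 (adjusted p = 0.0299 and 0.0138). The largest TAF, Taf1, was at -0.01 (adjusted p = 0.946).

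Among TFIIA, TFIIB, TFIIE and TFIIF, 4 of 7 genes were higher (57.1%, against 21.4% of all genes) and none lower (against 23.6%). Gtf2b, which encodes TFIIB, rose from 362, 351, 378 and 349 to 555, 442, 453 and 411 (log2 fold change 0.36, SE 0.09, adjusted p = 0.00401), and Gtf2f1, the large subunit of TFIIF, from 571, 510.2, 562 and 526 to 834, 663, 615 and 651 (log2 fold change 0.34, SE 0.09, adjusted p = 0.00472). For both, each TAC-Veh mouse was above each sham mouse. Gtf2f2, the partner of Gtf2f1, and Gtf2e2, the small TFIIE subunit, rose by 0.26 and 0.19, while Gtf2a1 and Gtf2e1 had -0.04 (adjusted p = 0.785) and -0.20 (adjusted p = 0.099). In the TFIIH core 2 of 5 rose (40%, against 21.4% of all genes): Gtf2h5, its smallest subunit, from 718, 681, 684 and 676 to 1076, 812, 879 and 715 (log2 fold change 0.32, SE 0.10, adjusted p = 0.0144), and Gtf2h1 from 577, 529, 532 and 542 to 664, 646, 692 and 598 (log2 fold change 0.25, SE 0.06, adjusted p = 0.00485). TAC-Veh replicate 4 lay inside the sham range for Gtf2h5, and without TAC-Veh replicate 1 its log2 fold change was 0.21.

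Gtf2i, the founding TFII-I gene (ENSMUSG00000060261, chromosome 5, 134713704 to 134790630, minus strand), is among the most abundant of the set and read 4627, 4843, 4591 and 5171 in Sham-Veh against 2498, 2714, 3366 and 3765 in TAC-Veh. No TAC-Veh mouse reached the lowest sham mouse (log2 fold change -0.66, SE 0.10, adjusted p = 9.50e-05). Gtf2ird2 fell by 0.22 (adjusted p = 0.0458) and Gtf2ird1 was at 0.01 (adjusted p = 0.967). Taf1b, a subunit of the Pol I factor SL1, rose by 0.40 (adjusted p = 0.00357), and none of Taf15, Taf5l and Taf6l passed.

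**Figure D2:**
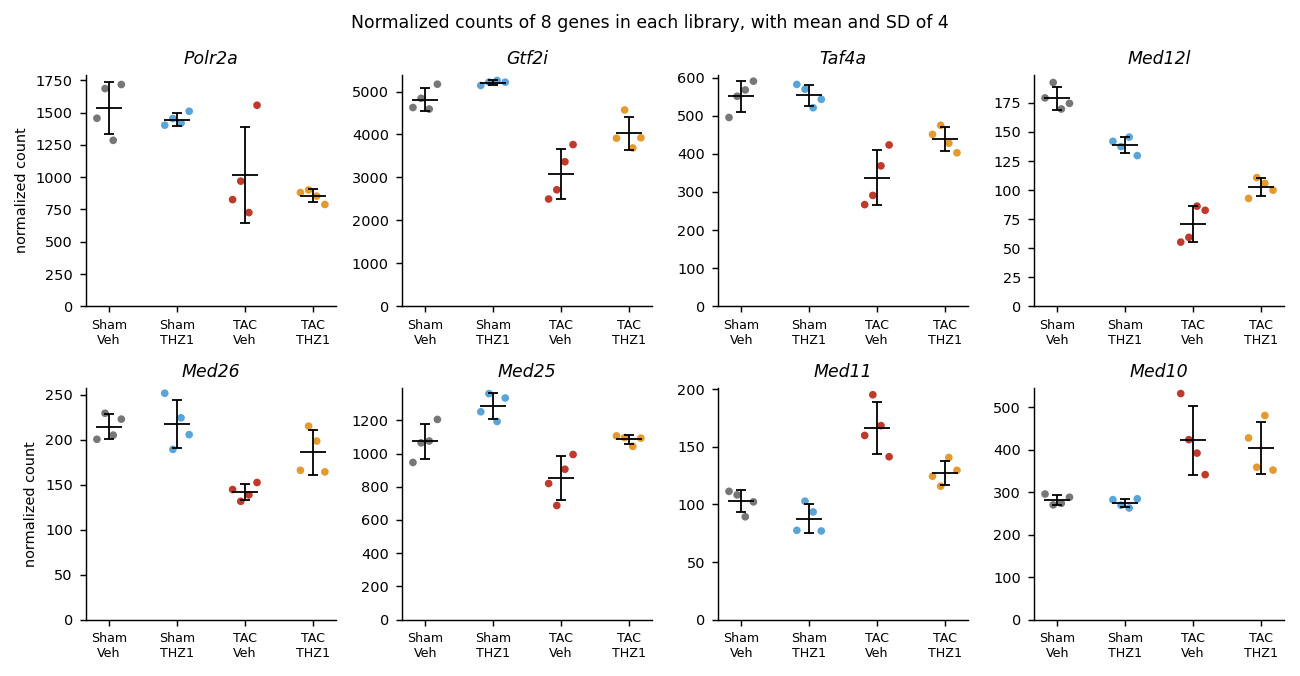
Normalized count (vertical axis, starting at 0) in every library for Polr2a, Gtf2i, Taf4a, Med12l, Med26, Med25, Med11 and Med10 in the 4 groups, with the mean and SD of 4 mice. For Med12l the TAC-Veh mice lie between 55.3 and 86.2 and the TAC-THZ1 mice between 92.8 and 111, both below the Sham-Veh mice, and 1 TAC-Veh mouse stands at 1557 for Polr2a.

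The stretches just upstream of the 4 genes with the largest decreases under TAC are shown because they let the reader compare the promoters of genes that were lower together. Each is the 250 bases before the RefSeq start, 5′ to 3′ on the gene's strand, in the build GRCm38.p6, which differs from the build of the gene positions above. Capitals mark matches, on either strand, to the letters TATAAA (the TATA box), the letters CCAAT, the letters GGGCGG (the GC box) or the letters CCGGAAG (core of sites of ETS factors). The windows are chr11:69758634-69758883 (minus) for Polr2a, chr5:134314761-134315010 (minus) for Gtf2i, chr2:179976647-179976896 (minus) for Taf4a and chr3:59006728-59006977 (plus) for Med12l.
Polr2a: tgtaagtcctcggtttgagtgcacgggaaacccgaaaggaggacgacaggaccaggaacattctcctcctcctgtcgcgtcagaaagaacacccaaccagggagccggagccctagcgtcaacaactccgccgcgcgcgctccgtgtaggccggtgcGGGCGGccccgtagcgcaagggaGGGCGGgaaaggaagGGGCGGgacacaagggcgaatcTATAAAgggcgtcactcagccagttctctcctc
Gtf2i: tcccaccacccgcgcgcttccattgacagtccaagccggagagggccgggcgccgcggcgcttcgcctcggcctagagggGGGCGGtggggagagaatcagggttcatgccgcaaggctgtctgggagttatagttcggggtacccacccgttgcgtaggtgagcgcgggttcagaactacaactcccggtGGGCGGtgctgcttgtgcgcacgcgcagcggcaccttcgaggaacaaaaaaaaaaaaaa
Taf4a: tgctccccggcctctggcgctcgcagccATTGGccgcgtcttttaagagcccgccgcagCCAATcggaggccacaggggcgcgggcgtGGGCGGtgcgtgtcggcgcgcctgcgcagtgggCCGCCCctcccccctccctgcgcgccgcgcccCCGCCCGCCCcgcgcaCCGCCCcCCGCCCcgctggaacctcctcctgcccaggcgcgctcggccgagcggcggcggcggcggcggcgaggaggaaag
Med12l: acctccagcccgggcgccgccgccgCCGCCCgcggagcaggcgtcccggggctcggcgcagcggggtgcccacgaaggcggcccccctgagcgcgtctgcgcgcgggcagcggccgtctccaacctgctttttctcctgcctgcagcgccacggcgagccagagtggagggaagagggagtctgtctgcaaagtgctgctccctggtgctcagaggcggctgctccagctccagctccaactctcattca

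The Polr2a window had a TATA box match 33 bases before the start and GC box matches at -93, -70 and -55, whereas the other windows held no TATAAA. Gtf2i had GC box matches at -170 and -59 and Med12l had 1 at -225. Taf4a was the richest in G and C, at 80.4% against 62.8% for Polr2a, 63.2% for Gtf2i and 72.0% for Med12l, and it held 6 GC box matches, of which those at -97 and -93 overlap, and CCAAT matches at -222 and -191. Of the 78 genes 67 matched a RefSeq promoter entry, and where 14 of these had more than 1 start the first listed was used. A GC box match was present in 62.7% of the 67 and in 32.9% of all 27025 genes with an entry, a CCGGAAG in 22.4% and 7.05%, a CCAAT in 35.8% and 34.5%, and a TATAAA in 16.4% and 13.0%. The 67 had passed the count filter but the 27025 were not filtered by counts, so these shares come from unlike sets of genes. Whether the differences are particular to the members was not tested. Among those lower with TAC 9 of 12 had a GC box match (75%), and among those higher 5 of the 12 that had an entry (41.7%). In the same order, a CCAAT match was present in 2 and 4, a TATAAA in 2 and 2, and a CCGGAAG in 2 and 1. These are few genes, and a part of the motifs in the changes was not tested.

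In hearts under pressure overload, members were called higher with THZ1 about as often as genes in general. Compared with TAC-Veh, 12 of the 78 genes were higher in TAC-THZ1 (15.4%, against 15.1% of all genes) and 1, Med11, was lower (1.28%, against 14.2% of all genes). The members' median log2 fold change was 0.03 against 0.01 over all genes, and their median absolute change 0.11 against 0.20. These counts depended on the fit. With only the TAC-Veh and TAC-THZ1 libraries in the model none passed, where 4.37% of all genes were higher and 6.12% lower at an adjusted p below 0.05. At an unadjusted p below 0.05, 12 members were higher and 1 lower in that fit, a count that was not made over all genes. With weights for library quality 4 were higher and 0 lower, against 9.83% and 8.27% of all genes. Scaling to totals without mitochondrial genes gave 5 higher and 4 lower with the members' median at -0.03, and it moved all genes alike, to 10.8% higher, 18.1% lower and a median of -0.05. Leaving out TAC-THZ1 replicate 2 gave 4 higher and 0 lower, TAC-Veh replicate 2 or TAC-THZ1 replicate 4 gave 6 and 0, and TAC-THZ1 replicate 1 gave 8 and 0. Over all genes, 2019 higher and 1899 lower became, in the same order, 1453 and 1405, 1365 and 1306, 1743 and 1694, and 1747 and 1649.

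Polr2a was not among those that rose. Its counts under TAC-THZ1 were 881, 901, 854 and 789, all within the lower part of the TAC-Veh range and well below the sham mice. The log2 fold change against TAC-Veh was -0.19 (95% interval -0.54 to 0.16, adjusted p = 0.408), and without the high TAC-Veh mouse, replicate 4, it was 0.03. Of the 11 Pol II and shared subunits 3 were higher (27.3%, against 15.1% of all genes). Polr2i, a small zinc-binding subunit, read 355, 299.6, 326 and 225 in TAC-Veh and 403, 423, 338 and 358 in TAC-THZ1 (log2 fold change 0.35, SE 0.12, adjusted p = 0.0425). The others were Polr2j (0.28, adjusted p = 0.0308) and the shared subunit Polr2e (0.22, adjusted p = 0.0324). None was lower. Polr2g, which rose with TAC, gave 0.04 (adjusted p = 0.798) here.

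Med12l showed the largest increase, from 55.3, 59.3, 86.2 and 82.6 in TAC-Veh to 92.8, 111, 106 and 99.95 in TAC-THZ1 (log2 fold change 0.55, SE 0.13, adjusted p = 0.00517). All TAC-THZ1 mice were above the TAC-Veh mice, and all were below the lowest Sham-Veh mouse. It was also the only one of the 78 whose response to THZ1 differed by surgery in the test of the interaction (log2 difference 0.91, SE 0.18, adjusted p = 0.00774; between 1.97e-04 and 0.0219 over the 26 alternatives), where 4.4% of all genes were called with a positive and 5.62% with a negative difference. In sham hearts the Med12l counts under THZ1 were 142, 137, 146 and 129.7, each below the lowest Sham-Veh mouse (log2 fold change -0.37, SE 0.13, adjusted p = 0.625).

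Gtf2i rose from 2498, 2714, 3366 and 3765 to 3913, 4571, 3686 and 3923 (log2 fold change 0.40, SE 0.10, adjusted p = 0.00869), and only the lowest of the TAC-THZ1 mice lay inside the TAC-Veh range. Taf4a rose from 267, 291, 369 and 423 to 451, 475, 428 and 403 (log2 fold change 0.40, SE 0.11, adjusted p = 0.0156), with 1 TAC-THZ1 mouse inside the TAC-Veh range. Other TAFs that were higher were Taf6 (0.26), the Taf9 entry ENSMUSG00000078941 (0.21) and Taf10 (0.20), so that 4 of 16 were higher (25%, against 15.1% of all genes) and none lower (against 14.2%). For Taf10 the call was lost in 11 of the 27 alternatives, with adjusted p up to 0.174.

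Within Mediator 4 of 30 genes were higher and 1 lower (13.3% and 3.33%, against 15.1% and 14.2% of all genes). Med26 went from 145, 132, 139 and 152 to 166, 215, 199 and 164 (log2 fold change 0.38, SE 0.11, adjusted p = 0.0139), each TAC-THZ1 mouse being above the TAC-Veh mice. Med25 went from 819, 687, 905 and 994 to 1106, 1096, 1043 and 1093 (log2 fold change 0.36, SE 0.10, adjusted p = 0.00986), with no overlap and with little spread between the TAC-THZ1 mice. Med16, its neighbour in the tail, rose by 0.25 (adjusted p = 0.0361). In the other direction, Med11 fell from 159.9, 195, 168 and 141 to 124, 116, 141 and 129.6 (log2 fold change -0.37, SE 0.12, adjusted p = 0.0326). Its highest TAC-THZ1 mouse was just under the lowest TAC-Veh mouse, and the call was lost in 8 of 27 alternatives, without TAC-Veh replicate 2 among them (adjusted p = 0.115). The scaffold Med14 was not called (-0.16, adjusted p = 0.0539). It was called lower with edgeR (adjusted p = 0.0474), DESeq2 (adjusted p = 0.0425), a mean of at least 50 and totals without mitochondrial genes. The same held without TAC-Veh replicate 3 and without TAC-THZ1 replicate 3.

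None of the 12 members of TFIIA, TFIIB, TFIIE, TFIIF and the TFIIH core was called with THZ1 in TAC, where 15.1% of all genes were higher and 14.2% lower. Gtf2b gave -0.14 (adjusted p = 0.258), Gtf2f1 -0.22 (adjusted p = 0.0702), Gtf2h1 -0.09 (adjusted p = 0.308) and Gtf2h5 0.01 (adjusted p = 0.931). Gtf2f1 was called lower in 4 of the 27 alternatives, with adjusted p from 0.0215 to 0.0486, namely scaling to upper quartiles and to totals without mitochondrial genes, the replicate block and the fit without TAC-Veh replicate 3. The 95% intervals of 71 of the 78 genes lay within a 1.5-fold change in either direction and those of 24 within 1.2-fold. The lowest bound of any gene was -0.63 and the highest 0.82 on the log2 scale. The TAC and THZ1-in-TAC comparisons use the same TAC-Veh libraries, so their values stand side by side here without a count of shared genes.

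In sham hearts THZ1 changed none of the 78 genes at an adjusted p below 0.05 with limma, where 0.0225% of all genes were higher and 0.045% lower. At an unadjusted p below 0.05 in limma there were 4 members (5.13%, against 6.88% of all genes), 2 higher and 2 lower. On the recovered whole reads edgeR called 0, with 2 higher and 5 lower at an unadjusted p below 0.05, and DESeq2 called 0, with 2 higher and 2 lower. For edgeR and DESeq2 the unadjusted counts were not made over all genes. The 95% intervals of 77 genes lay within a 1.5-fold change and those of 40 within 1.2-fold, with bounds no wider than -0.64 and 0.53. Med12l was the member whose interval went beyond 1.5-fold. These widths too rest on the spread of all 16 libraries, not on the sham mice alone.

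The point estimates nearest to a call in sham were Gtf2ird1 and Med12l. Gtf2ird1, a TFII-I relative, read 242, 258, 301 and 316 in Sham-Veh and 375, 331, 347 and 332 in Sham-THZ1 (log2 fold change 0.32, SE 0.10, adjusted p = 0.621, 95% interval 0.10 to 0.53). Med12l had the interval -0.64 to -0.09. Med25 read 1251, 1360.3, 1193 and 1334 in Sham-THZ1 (log2 fold change 0.26, SE 0.10, adjusted p = 0.65). When only the sham libraries were fitted, 2 passed, Med12l (adjusted p = 0.0281) and Med25 (adjusted p = 0.0441), and with weights for library quality 3 passed, with Gtf2ird1 added. More genes of all kinds passed in these fits as well, 2.15% higher and 1.34% lower in the first and 1.91% and 1.94% in the second.

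Polr2a read 1403, 1455, 1418 and 1511 in Sham-THZ1, all inside the Sham-Veh range (-0.08, 95% interval -0.42 to 0.27). For Gtf2b the difference was 0.08 (-0.11 to 0.27), for Gtf2h1 -0.01 (-0.15 to 0.13), for Taf1 -0.14 (-0.27 to -0.01) and for Med14 -0.07 (-0.20 to 0.05). These genes stand for the catalytic, promoter-binding and scaffold parts of the machinery, and of the 5 intervals only that of Taf1 leaves out 0 (adjusted p = 0.714).

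**Figure D3:**
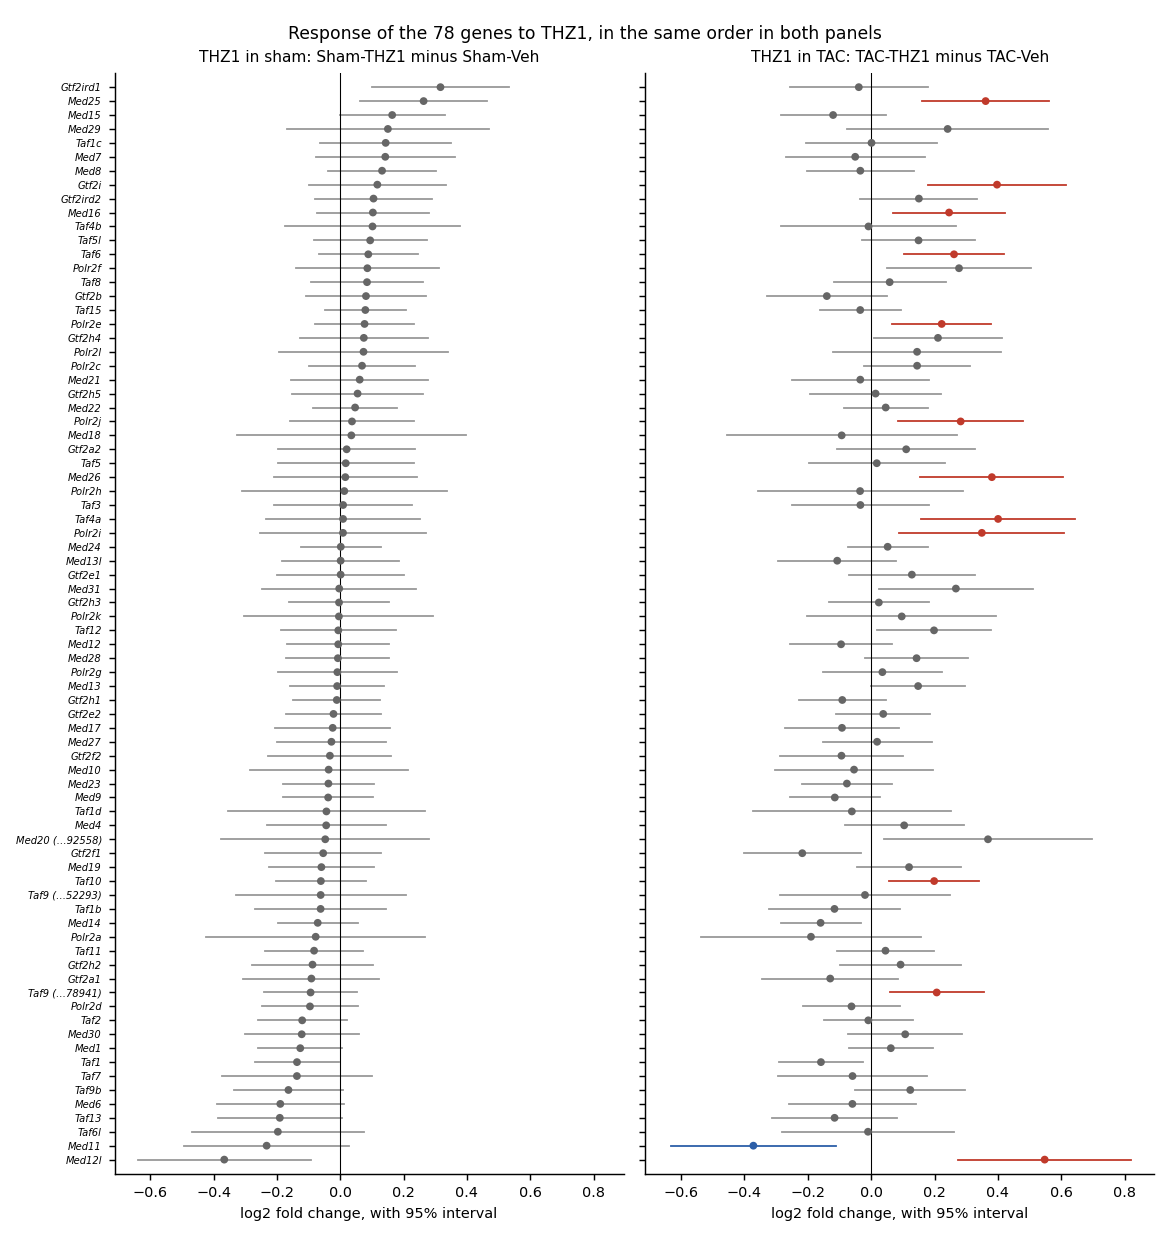
Log2 fold change with THZ1 (horizontal axis) with its 95% interval for each of the 78 genes, in sham hearts (left) and in TAC hearts (right), in the same order of genes. Left, all intervals lie between -0.64 and 0.53 and none of the points passed; right, the 12 genes called higher and Med11, called lower, are coloured.

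The comparison of TAC-THZ1 with Sham-THZ1, in which both groups received the drug, gave 14 members higher (17.9%, against 11.4% of all genes) and 9 lower (11.5%, against 12.8% of all genes). The members' median log2 fold change was 0.14 against 0.00 over all genes, 50 of 78 being above 0. Polr2a was lower by the largest amount, from 1403, 1455, 1418 and 1511 to 881, 901, 854 and 789, with the groups far apart and little spread in either (log2 fold change -0.76, SE 0.16, adjusted p = 0.00478). The TAC-Veh mice do not enter these means, but they enter the estimate of the spread behind the test, which is shared by all 16 libraries. Scaling to totals without mitochondrial genes gave 20 higher and 6 lower, where 12.6% of all genes were higher and 10.0% lower. Upper-quartile scaling gave 21 and 6, where 1914 of the 13331 genes were higher and 1308 lower. The 23 calls became 35 when only these 2 groups were fitted, 36 without TAC-Veh replicate 1, 13 without TAC-THZ1 replicate 1 or replicate 4, 14 without Sham-THZ1 replicate 1 and 15 without Sham-THZ1 replicate 4. Calls over all genes, 1514 higher and 1706 lower, moved the same way. They became 2054 and 2357 with only these 2 groups and 1987 and 2209 without TAC-Veh replicate 1. Without TAC-THZ1 replicate 1 or 4 they were 888 and 1089 or 1144 and 1279. Without Sham-THZ1 replicate 1 or 4 they were 1058 and 1205 or 922 and 1143.

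All other Pol II and shared subunits lay above 0 in this comparison, from 0.11 for Polr2c to 0.37 for Polr2g. Of the 11 including Polr2a, 3 were called higher (27.3%, against 11.4% of all genes), namely Polr2g, Polr2i (0.35) and Polr2j (0.29). Only Polr2a was called lower (9.09%, against 12.8% of all genes). Med10 rose from 283, 269.6, 263 and 285 to 428, 359, 481 and 352 (log2 fold change 0.55, SE 0.12, adjusted p = 0.00474) and Med11 from 77.5, 103, 93.5 and 77.0 to 124, 116, 141 and 129.6 (log2 fold change 0.54, SE 0.12, adjusted p = 0.00611), with every TAC-THZ1 mouse above every Sham-THZ1 mouse for both. In the head Med27, Med28 and Med30 were higher too, by 0.33, 0.31 and 0.35. The kinase module was lower in 3 of 4 genes (75%, against 12.8% of all genes), Med12l (-0.44, adjusted p = 0.0233), Med13 (-0.24, adjusted p = 0.0223) and Med12 (-0.23, adjusted p = 0.0412). Med12 and the scaffold Med14 (-0.18, adjusted p = 0.0405) each kept their call in 14 of 27 alternatives.

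In the TFII-I family Gtf2i (-0.38, adjusted p = 0.0157) and Gtf2ird1 (-0.35, adjusted p = 0.0225) were lower. Gtf2i counts were 5141, 5219, 5257 and 5217 in Sham-THZ1 and 3913, 4571, 3686 and 3923 in TAC-THZ1, without overlap. Of the TAFs, Taf4a (-0.34, adjusted p = 0.0438) and Taf3 (-0.33, adjusted p = 0.0275) were lower and Taf11 (0.27) and the Taf9 entry ENSMUSG00000078941 (0.29) higher. Taf4a kept its call in 12 of 27 alternatives. TFIIH had Gtf2h2 (0.32) and Gtf2h5 (0.28) higher, Gtf2e2 rose by 0.25, and Gtf2h5 kept its call in 13 of 27.

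The comparisons of TAC with sham under vehicle and under THZ1 have no library in common in their means, but both use the spread estimated from all 16 libraries, so the lists of calls are not independent. Of the members, 7 were higher in both, which is 46.7% of the 15 higher under vehicle and 50% of the 14 higher under THZ1, and over all genes the shares were 33.4% and 63.1%. In the other direction 6 were lower in both, 50% of 12 and 66.7% of 9, against 35.7% and 65.8% over all genes. None of the members was higher in 1 and lower in the other, and such genes were few among all genes. Of the 2857 genes higher under vehicle 39 were lower under THZ1, and of the 3146 lower under vehicle 8 were higher. Across all 5 tests, 39 of the 78 members were called in none, a count that was not made over all genes and so has no comparison.

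Direction under TAC went with the length of a gene's annotated exons, taken over all its transcripts, within this group. The Spearman correlation of the log2 fold change with the length of the annotated exons was -0.64 over the 78 genes for TAC under vehicle and -0.67 for TAC under THZ1, against -0.18 and -0.39 over all 13331 genes, and for THZ1 in TAC and in sham it was 0.03 and 0.02 over the 78 genes, against -0.16 and -0.10 over all genes. These values are across genes of the same libraries, which are not independent replicates, and are given as a description. Of the 39 shorter genes (543 to 3069 exon bases) 13 were higher and 2 lower with TAC, which is 33.3% and 5.13%, and of the 39 longer ones (3155 to 10840 bases) 2 were higher and 10 lower, 5.13% and 25.6%. Among all genes tested, those shorter than the members' median length were higher in 27.3% and lower in 16%, and those longer in 17.7% and 28.4%. No measure of RNA quality was among the values used, and its part in this relation was not tested. Content of G and C was read from the longest protein-coding transcript of each gene. Its correlation with the log2 fold change for THZ1 in sham was 0.48 over the members, against 0.37 over all genes. For THZ1 in TAC it was 0.36, against 0.09 over all genes.

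**Figure D4:**
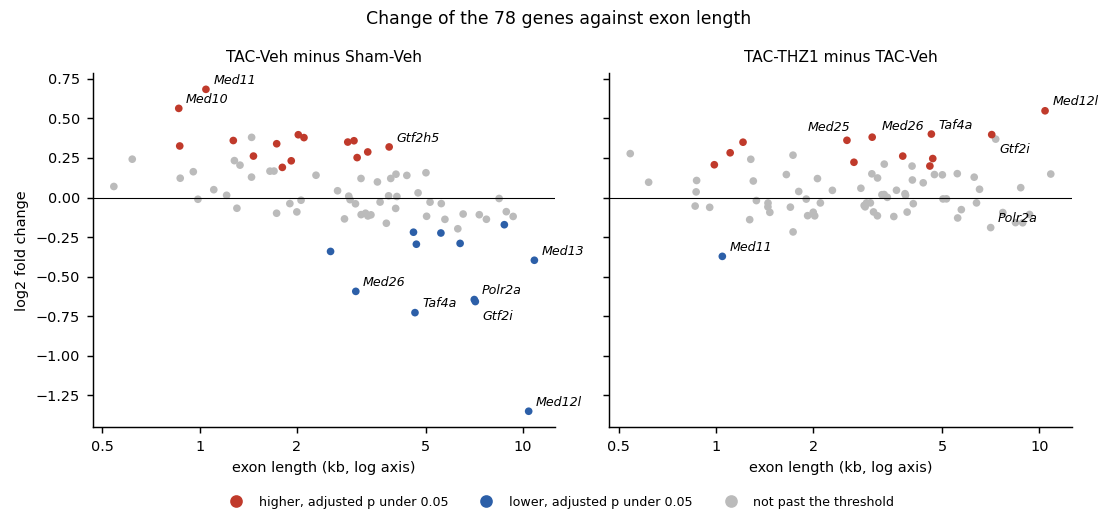
Log2 fold change (vertical axis) against the length of the annotated exons in kb (horizontal log axis) for the 78 genes, with TAC (left) and with THZ1 in TAC hearts (right). On the left long genes such as Gtf2i, Polr2a and Med12l lie below 0 and short ones such as Med11 and Med10 above it, with a Spearman correlation of -0.64; on the right it is 0.03.

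Several partners of these complexes have other symbols and were tested in the same fit, in which 21.4% of all genes were higher and 23.6% lower with TAC, and 15.1% and 14.2% with THZ1 in TAC. Of 7 TFIID and TFIIH partners, 1 was higher and 3 lower with TAC: the kinase Cdk7 at -0.21 (adjusted p = 0.0144), its cyclin Ccnh at -0.41, the helicase Ercc2 at -0.38, and the assembly factor Mnat1 at 0.30. The TATA-binding protein gene Tbp gave 0.10 (adjusted p = 0.447). With THZ1 in TAC hearts only Ccnh of the 7 passed, at 0.38 (adjusted p = 0.00171), and its interaction passed as well (0.46, adjusted p = 0.0155). The other kinases that THZ1 binds, Cdk12 and Cdk13, had -0.21 (adjusted p = 0.0684) and -0.22 (adjusted p = 0.00666) with TAC and -0.02 and 0.06 with THZ1 in TAC (adjusted p = 0.871 and 0.454). In sham hearts THZ1 gave -0.26, 0.16 and 0.05 for Cdk7, Cdk12 and Cdk13 (adjusted p = 0.346, 0.788 and 0.95).

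Of the 3 enzymatic partners of the Mediator kinase module, Cdk8 rose with TAC by 0.31, while Med12l and Med13, with which it assembles, fell, and none passed with THZ1 in TAC. Elongation and pausing factors had 4 of 35 higher and 10 lower with TAC (11.4% and 28.6%), among them Tcea3, which restarts stalled polymerase (-0.96), and Ell2, an elongation factor (0.67). With THZ1 in TAC 2 of the 35 were higher and 3 lower (5.71% and 8.57%), with Tcea3 at 0.80 and Ell2 at -0.44. The CTD phosphatases had 2 of 9 higher and 3 lower with TAC and 2 higher and 1 lower with THZ1 in TAC, and Pol II assembly factors 2 of 8 higher and 3 lower and then 3 higher and 0 lower.

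Pol I and Pol III were set beside Pol II. Pol I had 4 of 8 specific subunits higher and 1 lower with TAC (50% and 12.5%, against 21.4% and 23.6% of all genes), and the lower one was its largest subunit Polr1a (-0.65, adjusted p = 7.74e-05). Pol III had 3 of 11 higher and 1 lower (27.3% and 9.09%), and its largest subunit Polr3a gave -0.09 (adjusted p = 0.507). With THZ1 in TAC hearts Polr1a was at 0.23 (adjusted p = 0.0904), with 0 of 8 Pol I subunits higher and 1 lower and 1 of 11 Pol III subunits in each direction. THZ1 in sham hearts called no gene of any of these lists.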

How the data were processed

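Ventricular RNA of 16 mice was sequenced by the authors, strand-specifically and from 1 end, in reads of 40 bases. For alignment the authors used TopHat2 2.1.1 with mm9 (NCBIM37), and they counted reads per gene with HTSeq and divided the counts by DESeq2 size factors, and the deposited signal table holds these normalized counts for 22372 protein-coding genes. Every value was a whole multiple of the step of its library within a tolerance of 0.01 (100%), which gave back the reads: 21431703 to 35812869 in genes per library. A log2 change of a gene with few reads is less precise than that of a gene with many.

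The log2(normalized count + 1) of the 13331 genes with at least 10 normalized counts in at least 4 libraries was tested with limma 3.58.1 (R 4.3.3), with 4 groups in 1 fit, an intensity trend in the variance and Benjamini-Hochberg adjustment over all of them. A call is an adjusted p below 0.05. Contrasts were TAC and THZ1 within each level of the other, and their interaction. Alternatives were another pseudocount (5), no filter or a mean of at least 50, 3 scalings, only the groups compared, array weights, a replicate block, edgeR 4.0.16 and DESeq2 1.42.0 on whole reads, and leaving out each library. The procedure was tested on simulated counts with 1 spread for all genes and groups and with changes larger than most seen here. That test does not cover the wider spread of TAC-Veh or small changes. Intervals are the fit's 95% intervals for 1 gene at a time, with 1 spread per gene shared by the 4 groups. Exon lengths and overlaps come from the GENCODE annotation of NCBIM37, and motif positions count back from the base before the start. Tables and figures were made with Python 3.11.15, pandas 2.3.3, NumPy 2.4.6, SciPy 1.17.1 and Matplotlib 3.10.9.

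The members, the roles and the other lists were chosen with earlier results of these data known. Named genes are a panel of 15 (14 of them measured), the 4 called members of each direction with the smallest adjusted p in each comparison, the 2 with the largest change and the 2 with the smallest adjusted p. The remaining members given by name were picked with their values in view. The values of some listed genes are not reported here.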

Additional observations from a re-analysis of the deposited data

Results flagged for a closer look

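In the named genes, 100 groups of 4 mice were searched for a mouse whose gap to the nearest other passed Dixon's 95% limit as a share of the range of its group, a limit that chance passes in about 1 group in 20. It was passed in 4 groups. Gtf2a1, the large subunit of TFIIA, read 613.5 in Sham-Veh replicate 4 where the other 3 mice lay between 502 and 521, and 533 in Sham-THZ1 replicate 3 where the others lay between 490.3 and 495. Taf1, the largest TAF, read 647 in TAC-Veh replicate 3 against 756 to 769 in the other TAC-Veh mice, and 689 in TAC-THZ1 replicate 1 against 644 to 649. Neither gene was called in any of the 5 comparisons, but for THZ1 in TAC Taf1 was called lower without TAC-Veh replicate 3 (limma, log2 fold change -0.22, adjusted p = 0.00591), with totals without mitochondrial genes (adjusted p = 0.0307) and with DESeq2 (adjusted p = 0.0467).

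The response of Med12l to THZ1 differed between TAC and sham hearts in the test of the interaction, by 0.91 on the log2 scale (limma, adjusted p = 0.00774). It was higher with THZ1 in TAC (0.55) and had a log2 fold change of -0.37 with THZ1 in sham (adjusted p = 0.625).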

How the results depend on the processing

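The counts for TAC against sham under vehicle (15 higher, 12 lower) stayed within 1.5 times under all alternatives, at 13 to 20 and 10 to 14 without 1 library. The 12 members higher with THZ1 in TAC became 5 with scaling to totals without mitochondrial genes, 0 with only the 2 groups in the fit and 4 with array weights, and 4 to 15 without 1 library. The 1 lower (Med11) became 0 without the filter, with only the 2 groups or with array weights, 2 with a mean of at least 50, upper-quartile scaling, the replicate block or edgeR, 3 with DESeq2 and 4 with totals, and 0 to 3 without 1 library. For THZ1 in sham the 0 calls became 2 with only the 2 groups and 3 with array weights, and stayed 0 without any 1 library. For TAC under THZ1 the 23 calls became 35 with only the 2 groups and 43 with array weights, and 13 to 36 without 1 library. Of all genes 15.4% were higher and 17.7% lower with only the 2 groups, and 17.8% and 19.7% with array weights. The 1 interaction became 2 with quantile normalization or array weights, and 1 to 3 without 1 library, and could not be fitted with only 2 groups. The causes were not tested. No named gene that was called changed sign. Of the values of the named genes under the alternatives, 3191 kept their side of the threshold, 118 lost their call and 41 gained one. The replicate block gave 15 higher and 11 lower for TAC, 11 and 2 for THZ1 in TAC, 0 for THZ1 in sham, 14 and 7 for TAC under THZ1 and 1 interaction; replicate numbers did not pair the mice (correlation of deviations over 24 same-numbered pairs -0.43 to 0.16, median 0.02, and 2 libraries closest to their own number). Polr2b, with almost no counts in the table, limits what can be said of the catalytic core.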
